A study of Sus scrofa with 3 samples.

Results

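miR-423 was followed as its mature miRNAs ssc-miR-423-3p and ssc-miR-423-5p, 2 of the 276 porcine mature names in the small RNA files. They were taken as every porcine mature name bearing the miR-423 number and were chosen by the level and arm ratio measured in these same libraries, so that their levels and their ratio are given as a description, without a test. Small RNA was sequenced from psoas major muscle of fattening pigs slaughtered when they were 63, 98 or 161 d old. The pigs of all ages were castrated hybrid males (Landrace × Large White × Duroc). The diet of the study held less protein and available lysine at each heavier weight stage, so that diet and age cannot be told apart. Equal amounts of RNA from 6 pigs were pooled for each library, and each age had 1 library, so that the spread between pigs of 1 age was not measured. All intervals below are 95% intervals, which cover counting error only.

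A miRNA gene is transcribed into a hairpin, whose stem is cut into a duplex of a 5p and a 3p strand. Either strand may be kept in an Argonaute protein, where its seed, the bases near its 5′ end, pairs with target mRNAs, and for many hairpins 1 strand is kept far more often than the other. miR-423 is expressed in many tissues, and in people its 5p strand is widely studied in blood plasma as a marker of heart failure.

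The sequences of both strands are shown because the arms of 1 hairpin carry different seeds and so could pair with different targets. Each is the representative read of its arm in the deposited files, 5′ to 3′, with the seed (bases 2 to 8) in capitals.
ssc-miR-423-3p: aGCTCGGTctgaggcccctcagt
ssc-miR-423-5p: tGAGGGGCagagagcgagacttt
Each read was 23 nt long, had 0 errors against the known sequence and was the same in all 3 libraries. A length of 23 nt was found for 52 of the 276 porcine mature names (18.8%). The GC content was 65.2% for 3p and 56.5% for 5p, against a median of 47.6% over the 276 names, of which 20 were at least as GC-rich as 3p and 67 at least as GC-rich as 5p (the arms counted). The number of other names with the seed of either arm was 0, and so was the number of miR-423 names of other species.

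Both arms came from 1 hairpin of 120 bases on the minus strand, at positions 48286998 to 48287117 of a genome sequence whose chromosome and build the deposited files do not name. The 3p arm lay at 48287031 to 48287053 and the 5p arm at 48287067 to 48287089. In the deposited fold of the hairpin, 17 bases of each arm were paired with the other arm, and the free energy was -45.4 kcal/mol. The first 4 bases of each arm held 2 GC pairs and 2 AU pairs, so that the paired ends of the duplex had the same make-up by this count. The RefSeq gene table of Sscrofa11.1 places MIR423 within the span of NSRP1, a gene for a splicing regulator, between the protein-coding genes EFCAB5 and SLC6A4. The nearest other listed hairpins of the same genome sequence were ssc-mir-451, at a distance of 1109816 bases, and ssc-mir-144, both known from red blood cells.

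The libraries held 968834 to 1715384 reads counted at 1 hairpin per miRNA, of which 87.5% to 89.3% had porcine names. Levels are given as CPM, counts per 1000000 of these counted reads, and 3 reads, the floor set for low counts, correspond to 1.75 to 3.10 CPM. The libraries carried the miRNAs that mark skeletal muscle, with all 6 names of the muscle list present and ssc-miR-133a-3p alone making up 24.5% to 31.4% of the counted reads.

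The level of ssc-miR-423-3p was high at 63 d and lower at both later ages. It had 3731 reads in the 63 d library, 3209 in that of 98 d and 3287 in that of 161 d. These reads gave 3851 CPM (3728 to 3977) at 63 d, 1871 CPM (1807 to 1937) at 98 d and 2122 CPM (2050 to 2196) at 161 d. It ranked 27th, 47th and 39th among the porcine miRNAs of these libraries. The level at 63 d lay above the intervals of both later libraries, and on this scale the level at 98 d was the lowest of the 3. When scaled by the clean reads of each library, 161 d was the lowest, at 0.923-fold of 98 d.

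ssc-miR-423-5p differed less between the ages. Its reads numbered 2476 in the 63 d library, 3523 in that of 98 d and 2973 in that of 161 d. Its level was 2556 CPM (2456 to 2658) at 63 d, 2054 CPM (1987 to 2123) at 98 d and 1919 CPM (1851 to 1990) at 161 d, with ranks of 40, 44 and 43. On this scale the level was again highest at 63 d, although not when scaled by the clean reads of each library, while the intervals of the later libraries met at their ends.

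In order of level, the 3p arm at 63 d came first and the 5p arm at 63 d next. The 3p arm at 161 d and the 5p arm at 98 d followed with overlapping intervals, and so did the 5p arm at 161 d and the 3p arm at 98 d. Both arms together had 6207, 6732 and 6260 reads, or 6407 CPM (6248 to 6568) at 63 d, 3924 CPM (3831 to 4019) at 98 d and 4041 CPM (3942 to 4143) at 161 d. The number of reads at this hairpin outside the arms was 0 in each library. In pooled tissue, fewer cells of a type and less of this RNA per cell cannot be told apart.

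**Figure D1:**
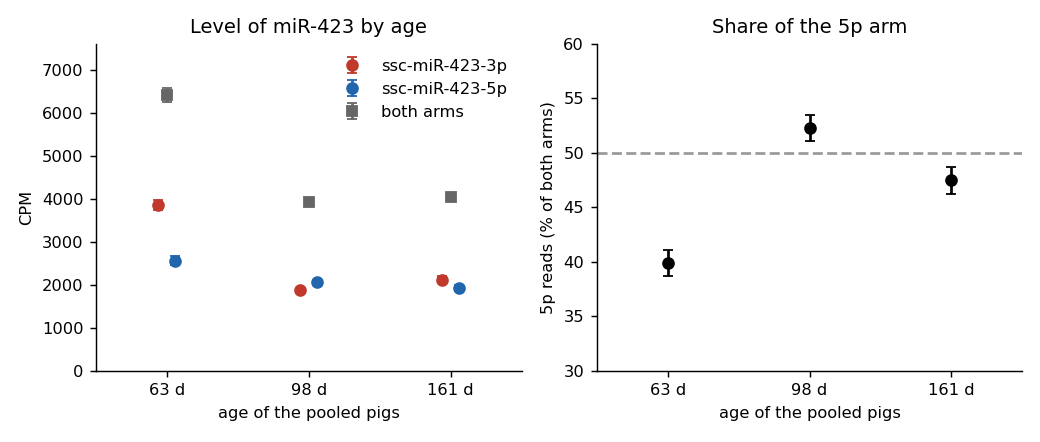
The left plot gives the CPM of each arm and of both arms (vertical axis, CPM) in the library of each age, with 95% Poisson intervals for counting error. The right plot gives the 5p share of the reads of both arms in percent, on an axis from 30 to 60, with Wilson intervals and a dashed line at equal shares. The 3p arm stood above the 5p arm at 63 d (3851 against 2556 CPM) and below it at 98 d (1871 against 2054 CPM) when all reads were counted, but not with copies of the representative read alone.

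From 63 to 98 d, the CPM of ssc-miR-423-3p differed 0.486-fold (0.463 to 0.509, later to earlier), a log2 difference of -1.04. ssc-miR-423-5p differed 0.804-fold (0.763 to 0.846), a log2 difference of -0.32, although its fold was above 1, at 1.27, when scaled by the clean reads of the library. Both arms together differed 0.613-fold (0.592 to 0.634) on the CPM scale. This sum was not recomputed with clean reads, where the folds were 0.767 for 3p and 1.27 for 5p. Of the 239 porcine miRNAs with at least 10 reads in either library, 16 (6.69%) were lower past 2-fold at 98 d, 1 member among them, and 24 (10.04%) were higher past 2-fold, with 0 members. In these counts over all miRNAs, fewer than 3 reads in a library were taken as 3, which touched neither arm. With the reads as they are, 16 were lower and 25 higher from 63 to 98 d, and the counts of the later pairs of ages were those given below. The median miRNA differed 1.17-fold, so that relative to it the 3p arm differed 0.414-fold and the 5p arm 0.685-fold. A smaller fold than that of 3p was found for 11 of these miRNAs, and one smaller than that of 5p for 61.

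Among the 60 miRNAs with a mean of at least 1000 CPM, 4 were lower past 2-fold at 98 d. Beside ssc-miR-423-3p these were ssc-miR-92a (0.465-fold), ssc-miR-28-3p (0.488-fold) and ssc-miR-127 (0.490-fold), named here after their values were seen. The 3p arm lay close to the 2-fold limit, and it was inside that limit when only reads without mapping error (0.515-fold) or only copies of the representative read (0.512-fold) were counted, or when scaled by clean reads (0.767-fold).

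From 98 to 161 d, the arms differed little in CPM. The fold of ssc-miR-423-3p was 1.13 (1.08 to 1.19) on the CPM scale, above 1 under every scaling tried but that by clean reads, where it was 0.923. The fold of ssc-miR-423-5p was 0.935 (0.890 to 0.982), and it turned to 1.13 with the normalisation factors of the study, 1.12 with TMM factors, 1.13 with DESeq2 size factors and 1.02 without ssc-miR-133a-3p in the total. The direction of 5p between these ages is therefore not given. Both arms together had a fold of 1.03 (0.995 to 1.07) on the CPM scale, whose interval held equality. That interval does not cover the choice of scaling. Under the scalings that turned 5p, each arm had a fold above 1, and with clean reads each had one below 1 (0.923 for 3p and 0.760 for 5p). The median of the 241 miRNAs compared was 0.831, and relative to it 3p differed 1.37-fold and 5p 1.13-fold. Of these 241, 28 (11.6%) were lower and 9 (3.73%) higher past 2-fold, with 0 members in either direction.

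From 63 to 161 d, both arms were lower at the later age under the 7 scalings tried. The fold of 5p was near equality with clean reads, at 0.964, where that of 3p was 0.707. ssc-miR-423-3p differed 0.551-fold (0.526 to 0.578) and ssc-miR-423-5p 0.751-fold (0.712 to 0.792). The median of the 235 miRNAs compared was 0.976, and relative to it the folds were 0.565 for 3p and 0.770 for 5p. Lower past 2-fold were 29 of the 235 (12.3%) and higher 20 (8.51%), with 0 members in either direction. The 3 pairs of ages share libraries, so that their values are not independent of each other.

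**Figure D2:**
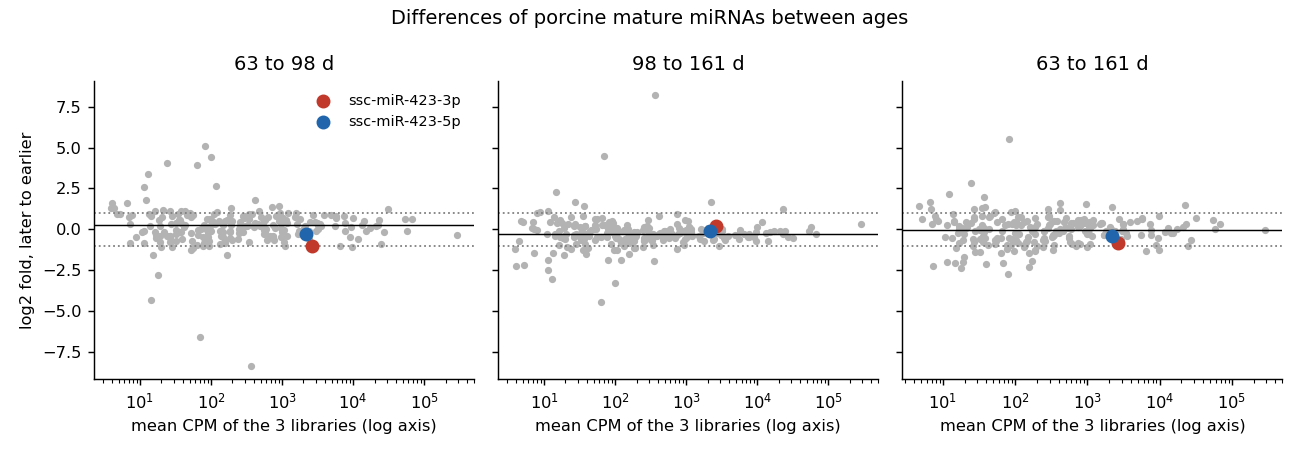
Each point is a porcine mature miRNA with at least 10 reads in either library, with its mean CPM over the 3 libraries on a log axis and its log2 fold of CPM, later to earlier (fewer than 3 reads taken as 3). The dotted lines mark 2-fold in either direction and the solid line the median. From 63 to 98 d the 3p arm (red) lay at -1.04 and the 5p arm (blue) at -0.32. The 5p point would lie above 0 in that panel when scaled by clean reads, and in the panel of 98 to 161 d the sign of each arm also turned with the scaling.

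**Figure D3:**
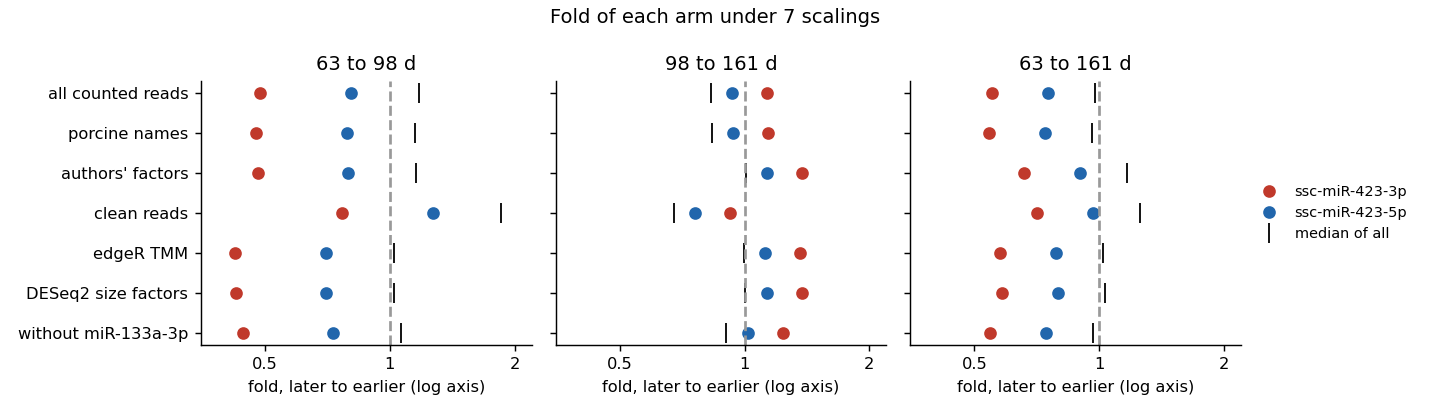
Fold of each arm, later to earlier on a log axis, under 7 scalings of the libraries, with the median of all porcine miRNAs compared as a black bar. From 63 to 98 d the 3p arm stood below 1 under every scaling, from 0.423 to 0.767, whereas the 5p arm crossed 1 with clean reads in that pair and with 4 scalings from 98 to 161 d.

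The arms stand in the same library, so that their ratio does not depend on the scaling between libraries. The 5p arm made up 39.9% (38.7 to 41.1) of the reads of both arms at 63 d, 52.3% (51.1 to 53.5) at 98 d and 47.5% (46.3 to 48.7) at 161 d. The 5p to 3p ratio was thus 0.664, 1.10 and 0.904. The 3 intervals did not overlap, and the larger arm was 3p at 63 and 161 d and 5p at 98 d. Which arm was the larger depended on the reads counted. With reads without mapping error the 5p share was 44.6%, 55.9% and 50.7%, so that 5p was the larger arm at 161 d as well. With copies of the representative read it was 37.6%, 48.8% and 43.6%, so that 3p was the larger arm in each library. The order of the ages, lowest at 63 d and highest at 98 d, was the same by all 3 counts.

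The 5p to 3p ratio differed 1.65-fold (1.54 to 1.77) from 63 to 98 d, 0.824-fold (0.769 to 0.883) from 98 to 161 d and 1.36-fold (1.27 to 1.46) from 63 to 161 d. For comparison, 36 hairpins had both arms named and at least 100 reads over both arms in each library. As for the folds, fewer than 3 reads of an arm were taken as 3. The ratio then differed by over 1.5-fold, in either direction, for 14 of them (38.9%) from 63 to 98 d, miR-423 among them. It did so for 11 (30.6%) from 98 to 161 d and for 12 (33.3%) from 63 to 161 d, miR-423 not among them. With the reads as they are these counts were 16, 11 and 14, and for 1 hairpin from 63 to 98 d, miR-1296, no ratio could be formed because 3p had 0 reads in both libraries. A shift of this size was therefore common among the hairpins, and that of miR-423 was the 12th of 36 in size from 63 to 98 d, or the 13th with the reads as they are. Among the 17 hairpins with at least 1000 reads in each library it was the 6th, or the 7th with the reads as they are.

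miR-423 stood near equal arms, whereas 21 of the 36 hairpins had over 90% of their reads on 1 arm. A 5p share between 30% and 70% in every library was found for 2 hairpins, miR-374a and miR-423. The shares of miR-126 lay close to the upper limit, at 62.6%, 70.4% and 70.8%. When all reads were counted, the larger arm differed between libraries for 1 of the 36, miR-423 itself. This is a description of the arm ratio the hairpin was picked for. With copies of the representative read, 3p was the larger arm of miR-423 in each library. The 5 hairpins of at least 1000 reads whose ratio differed most from 63 to 98 d were miR-30b, miR-140, miR-148a, miR-28 and miR-151. Most of their reads lay on the same arm throughout. For miR-30b, for example, the 5p share was 98.7%, 99.5% and 99.5% at the 3 ages, and for miR-140, a miRNA of cartilage, it was 1.97%, 4.66% and 1.57%. miR-151 had shares nearer to those of miR-423, at 66.6%, 77.1% and 74.1%. As for miR-423, its 5p share was lowest at 63 d and highest at 98 d. miR-28, with 14.5%, 22.6% and 22.2%, had the same order. It also held for let-7d (73.2%, 79.5% and 74.1%) and miR-7134 (17.7%, 25.3% and 21.5%), named here after their values were seen. This order was thus not particular to miR-423. For other hairpins it did not hold, such as miR-148a, with 0.348%, 0.166% and 0.262%.

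**Figure D4:**
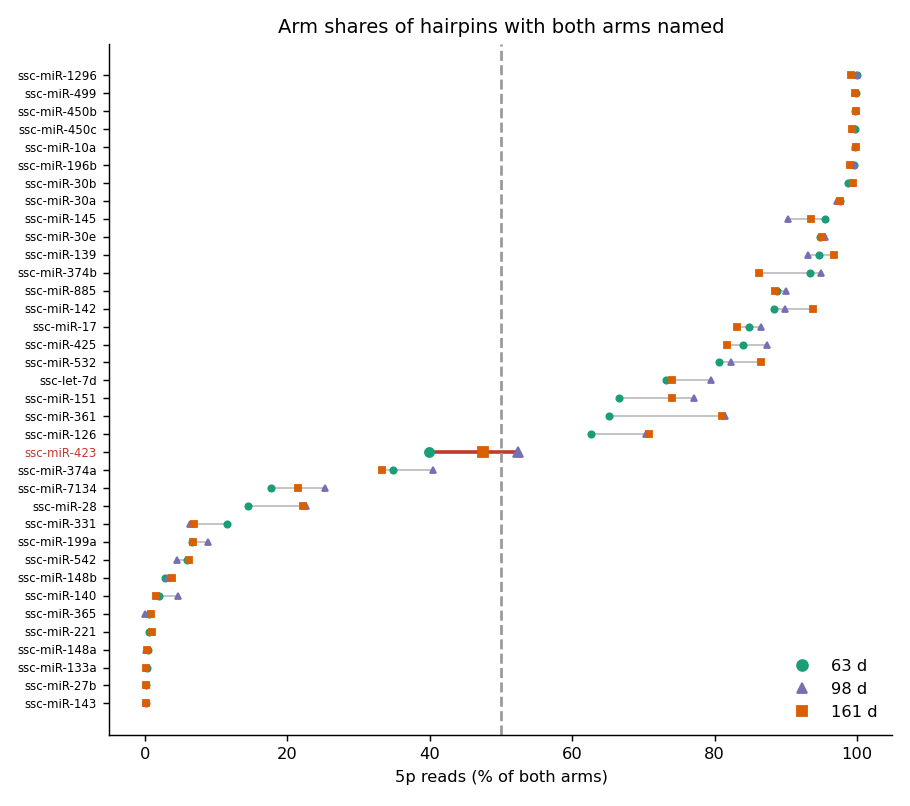
The 5p share of the reads of both arms, in percent, for the 36 hairpins with both arms named and at least 100 reads in each library, 1 hairpin per line and 1 symbol per age. Most hairpins lie near an edge, while miR-423 (red) runs from 39.9% at 63 d to 52.3% at 98 d across the dashed line of equal arms when all reads are counted. With copies of the representative read it would stay left of that line.

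The reads of each arm were also divided into copies of the representative read, other reads without error and reads with at least 1 mapping error. In ssc-miR-423-3p, reads with error made up 22.9% (21.6 to 24.3) at 63 d, 18.3% (17.0 to 19.7) at 98 d and 17.4% (16.1 to 18.7) at 161 d. In ssc-miR-423-5p they made up 6.46% (5.56 to 7.50), 5.79% (5.07 to 6.61) and 6.16% (5.35 to 7.08). The 3p arm thus held the larger share of such reads in each library, and its share was highest at 63 d, while the intervals of the 5p arm overlapped.

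Of the 56 porcine miRNAs with at least 1000 reads in each library, the median share of reads with error was 14.1%, 13.8% and 14.4% at the 3 ages. A share above that of 3p was found for 13, 21 and 23 of them, and one above that of 5p for 50, 51 and 52. The share of 3p was 4.65 percentage points higher at 63 d than at 98 d, against a median of 0.108 points. Of the 56 miRNAs, 1 had a larger drop, ssc-miR-26a, with 5.21 points.

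The kinds of reads differed by unequal folds in the 3p arm between 63 and 98 d. From 63 to 98 d, its reads without error differed 0.515-fold (0.488 to 0.543), from 2967 to 1529 CPM. Its reads with error differed 0.387-fold (0.348 to 0.431), from 884 to 342 CPM. In the 5p arm the folds were 0.809 (0.767 to 0.854) without error and 0.720 (0.583 to 0.891) with error, with overlapping intervals. From 98 to 161 d the 3p folds were 1.15 (1.09 to 1.21) without error and 1.08 (0.960 to 1.21) with error, whose intervals also overlapped. The files do not split the errors by position or base, and what these reads were was not tested.

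The arms also differed in reads without error other than the representative read, which include shorter and longer forms. These made up 9.84%, 10.8% and 10.7% of 3p reads and 32.4%, 32.7% and 32.5% of 5p reads at 63, 98 and 161 d. Copies of the representative read made up 67.2%, 70.9% and 71.9% of 3p reads and 61.1%, 61.5% and 61.4% of 5p reads. The make-up of the 5p arm thus stayed within 1 percentage point between the libraries, for each of the 3 kinds of reads.

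**Figure D5:**
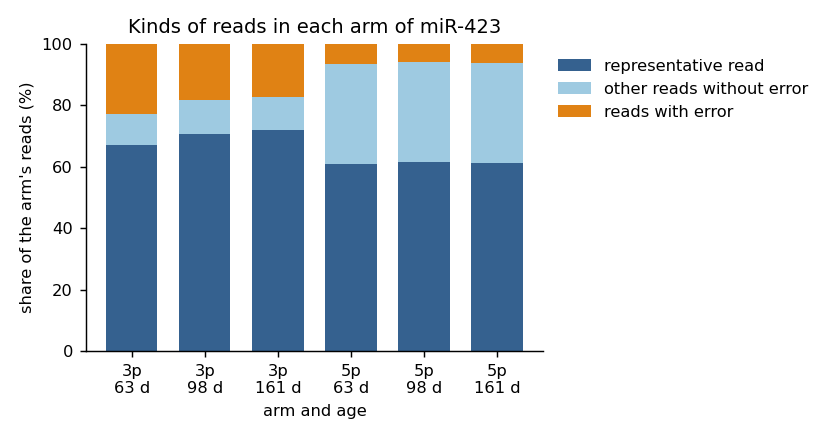
Share of each kind of read, in percent of the arm's reads, for each arm and age, with bars stacked to 100. The 3p bars hold more reads with error (17.4% to 22.9%) than the 5p bars (5.79% to 6.46%), and the 5p bars hold more of the other reads without error (32.4% to 32.7% against 9.84% to 10.8%).

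The miRNAs with the most similar course over the 3 libraries were named by the largest difference between their log2 CPM, each centred on its own mean, among the 59 others with a mean of at least 1000 CPM. For ssc-miR-423-3p these were ssc-miR-28-3p (a largest difference of 0.02), ssc-miR-378 (0.16), ssc-miR-320 (0.26), ssc-miR-92a (0.26) and ssc-miR-7134-3p (0.30). ssc-miR-28-3p had 1613, 787 and 873 CPM at 63, 98 and 161 d, at a lower level than miR-423-3p. ssc-miR-378, a miRNA encoded within the metabolic gene PPARGC1B, had 36302, 19332 and 17733 CPM. For ssc-miR-423-5p the nearest were ssc-miR-181b (0.03), ssc-miR-103 (0.06), ssc-let-7e (0.11), ssc-miR-30d (0.13) and ssc-let-7c (0.13). ssc-miR-181b had 1966, 1601 and 1536 CPM. The other arm of the same hairpin was the 9th nearest for 3p and the 28th for 5p, with a difference of 0.39. With 3 libraries such likeness is a description only.

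Some lists of miRNAs served as a frame for these folds. The muscle list, miRNAs that are highest in heart or skeletal muscle, had a median fold of 1.43 from 63 to 98 d, 0.716 from 98 to 161 d and 0.994 from 63 to 161 d over its 6 members. Its member ssc-miR-1 differed 2.38-fold from 63 to 98 d, and ssc-miR-133a-3p 0.780-fold. Of the blood list, 7 of 8 names were present, with medians of 1.34, 0.711 and 1.00. The summed level of these 7 was 77545, 65899 and 68531 CPM at 63, 98 and 161 d. Most of this sum was ssc-miR-486, which the study counts as muscle-related. From 63 to 98 d, 3 of the 7 had a fold below 1, namely ssc-miR-486 (0.920), ssc-miR-150 (0.876) and ssc-miR-92a (0.465). The folds of ssc-miR-451 (1.69), ssc-miR-144 (2.11), ssc-miR-142-5p (1.58) and ssc-miR-142-3p (1.34) were above 1. Red-cell ssc-miR-451 had 1137, 1926 and 1449 CPM. ssc-miR-486 had 59234, 54525 and 59229 CPM, and ssc-miR-92a, which blood cells share with dividing cells, had 15433, 7175 and 6327 CPM. Blood is a known source of miR-423, and its part in these folds was not tested.

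miR-423 has been put forward as a reference for measuring other miRNAs, as have the members of the reference list. Of these, 9 of 10 names were present, with medians of 1.22, 0.854 and 1.24 in the 3 pairs of ages. From 63 to 98 d, 0 of the 9 had a fold below that of ssc-miR-423-3p and 1 had one below that of ssc-miR-423-5p, ssc-miR-103 with 0.761. From 98 to 161 d the numbers were 9 and 6, so that all of the reference miRNAs present had a fold below that of 3p. From 63 to 161 d they were 0 and 1, the latter ssc-let-7a with 0.643. Over all miRNAs compared, folds below those of 3p and 5p were found for 11 and 61 of 239 (63 to 98 d). They were found for 195 and 151 of 241 (98 to 161 d) and for 42 and 81 of 235 (63 to 161 d). A fold below that of 3p from 98 to 161 d was thus common among all miRNAs. ssc-miR-191, often used for this purpose, had 12113, 14679 and 12536 CPM, and ssc-miR-425-5p had 456, 515 and 476 CPM.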

How the data were processed

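The small RNA libraries of the 63, 98 and 161 d psoas major samples (1 per age, with the age taken from the days given in the sample characteristics) were analysed. The labels and the methods of the study name different RNA extraction reagents. The authors processed the reads with ACGT101-miR 4.2, which filtered adapters, lengths and other RNA classes and mapped reads to the hairpins of miRBase 20 and the pig genome, of a build not given in the sources used here. The deposited files give counts, the copies of the representative read of each arm, without normalization. Beside these stand expected counts, deposited as the sum of every isoform of an arm with reads of several hairpins divided between them, which the authors did not normalize. For the 63, 98 and 161 d libraries alike, the deposited reads without and with mapping error, recorded as other values for 63 d, sum to these expected counts. In the files of 98 and 161 d the column names are shifted by 1 column, which was corrected. The arms of miR-423 were listed at 1 hairpin, with whole numbers of reads.

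From these files CPM was computed per 1000000 reads counted at 1 hairpin per miRNA (the hairpin present in the most libraries, then the first in the file). Intervals are 95%: Poisson for levels, Clopper-Pearson for folds, Wilson for shares and log-scale (Woolf) for ratios of ratios, after rounding expected counts. PCR reads without molecular identifiers are not independent molecules, so that intervals and floors cover counting error only. With 1 library per age no p-value was computed. Folds used no pseudocount and needed at least 10 reads in either library. In folds over all miRNAs and in arm ratios over all hairpins, counts under 3 reads were taken as 3, so that a fold against 0 reads is finite. Leaving out this floor was added as an alternative after the data were seen. Named were both arms, the 5 miRNAs of nearest course to each among those of at least 1000 CPM, the 5 hairpins of at least 1000 reads with the largest difference in arm ratio from 63 to 98 d, and the members of the lists, together with names of other species and names sharing a seed. The arms, lists and comparisons were chosen with earlier results of these data known. Alternatives were other scalings, with edgeR 4.0.16 TMM factors, DESeq2 1.42.0 size factors, the normalisation factors of the study and its clean read totals, and other read classes and minima. The counting of folds was tested on simulated data. Python 3.11.15, scipy 1.17.1 and R 4.3.3 were used.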

Additional observations from a re-analysis of the deposited data

How the results depend on the processing

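No paired analysis was possible because each age had 1 library. Of 99 values recomputed under alternatives, 49 moved by less than their counting interval (counts by less than 1.5 times), 44 moved by more and 6 turned direction. Adding names of other species gave no value, since 0 were listed. Scaled by clean reads, the folds of 3p and 5p were 0.767 and 1.27 (63 to 98 d), 0.923 and 0.760 (98 to 161 d) and 0.707 and 0.964 (63 to 161 d). TMM factors gave 0.423 and 0.699, then 1.36 and 1.12. DESeq2 size factors gave 0.424 and 0.702, then 1.37 and 1.13, then 0.583 and 0.794. Scaling by the normalisation factors gave 1.37 and 1.13 from 98 to 161 d and 0.659 and 0.898 from 63 to 161 d. Without ssc-miR-133a-3p in the total, the folds were 0.441 and 0.730, then 1.23 and 1.02. These scalings moved the median log2 fold by up to 0.66, and the folds of the arms by the same amount. Reads without error gave 3p folds of 0.515 (63 to 98 d) and 0.591 (63 to 161 d), and copies of the representative read 0.512 and 0.589. The 5p shares were 44.6%, 55.9% and 50.7% with reads without error and 37.6%, 48.8% and 43.6% with copies.

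With a mean of at least 1000 CPM, lower and higher past 2-fold were 4 and 1 miRNAs (63 to 98 d), 1 and 2 (98 to 161 d) and 3 and 2 (63 to 161 d). TMM factors gave 25 lower from 63 to 98 d, and 15 lower and 14 higher from 98 to 161 d. DESeq2 size factors and the normalisation factors each gave 15 lower and 15 higher from 98 to 161 d. With at least 1000 reads, 8, 3 and 3 hairpins differed in arm ratio. Without the floor of 3 reads, an alternative chosen after seeing the data, 16, 11 and 14 of the 36 hairpins did. The causes were not tested. The differences between single pigs could not be seen at any depth, since each library was a pool.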
